A study of Arabidopsis thaliana with 9 samples.

Results

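The UDP-glycosyltransferase (UGT) genes of Arabidopsis thaliana were followed in seedlings with altered AtSPP, the gene for signal peptide peptidase. Members were all genes with a UGT family symbol in the array's platform annotation and a probe set paired with that gene alone. This gave 46 genes from 11 families, out of 13356 genes with such a probe set. Each of the 46 had 1 probe set, and all 46 carried a UGT symbol in RefSeq's gene table too (assembly TAIR10.1). Of the 50 probe sets with UGT symbols, 3 were paired with several genes and 1 belonged to a gene that is not reported here.

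RNA was measured on 9 Affymetrix ATH1 arrays, 3 in each of 3 groups. The AtSPP-overexpressed lines carried full-length AtSPP between the CaMV 35S promoter, which is active in most tissues, and Nos-T in a binary vector. The labels name it pZH2B, pZH3B and pZH4B on the 3 arrays, while the study's methods name pZH2B alone. The AtSPP knockdown lines carried a pBI-sense, anti sense-GW vector with a fragment of AtSPP, of 600 bp with Asp198 in replicate 1 and of 400 bp with Asp198 and Asp239 in replicates 2 and 3. Col-0 was the strain without a construct. All seedlings were 7 days old, had grown on half-strength MS medium with 0.8% agar, and were extracted whole as pools of 20 plants. The labels mention 3 lines for each construct, but nothing states that each array was a separate line, and the Col-0 samples are known only as separate pools. Part of the spread behind the p-values may thus be technical. In whole seedlings, fewer cells that express a gene and less RNA per cell cannot be told apart.

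UGT enzymes move a sugar from a UDP-sugar onto a small acceptor molecule. In plants their acceptors include flavonoids, monolignols, hydroxycinnamic acids, sterols, auxin, cytokinin, abscisic acid, salicylic acid and foreign compounds. The added sugar makes the acceptor more soluble, often inactivates it and prepares it for storage in the vacuole, and beta-glucosidases can release it again. UGT families are numbered by sequence, and many Arabidopsis members lie beside each other as tandem copies.

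The signal is the value that the authors normalized with the distribution free weighted (DFW) algorithm. DFW holds most probe sets almost level across arrays, so that the group means of a UGT gene often share their first 3 decimals. The median SD over the 9 arrays was 8.62e-06 for the 46 UGT genes and 5.38e-06 for all 22746 probe sets, and 3 UGT genes had an SD above 0.001. Values for single arrays are therefore given below as the distance from the mean of the 3 Col-0 arrays, in DFW units. Since DFW draws the arrays together, these differences cannot be read as log2 fold changes. In the main results, levels of different probe sets served only to pick the brightest gene of a role list. Among the alternative fits, they also served in the filter on dim probe sets and in the intensity trend. Related UGT transcripts may bind each other's probes, which was not tested.

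AtSPP had a DFW signal of 8.19 ± 0.0348 in the AtSPP-overexpressed lines, 7.926 ± 0.00961 in the knockdown lines and 7.974 ± 0.0109 in Col-0 (SD, n = 3 each). The overexpression passed the test (limma adjusted p = 0.014), but not without Col-0 replicate 1 or 2 (0.0712 and 0.081) or with the 6 arrays of the comparison alone (0.106). The knockdown did not pass in limma (adjusted p = 0.125), although its 3 arrays all lay below the 3 Col-0 arrays and rank products called it lower. It passed in limma with the 6 arrays alone (adjusted p = 0.0303), after centring on array medians (0.00443) and without AtSPP-overexpressed replicate 2 (0.0379). Whole-seedling markers were measured in part, with 2 of 6 shoot, 2 of 7 root and 0 of 5 seed storage genes. The shoot gene LHCB4.2, which encodes a light-harvesting protein, was higher in the knockdown lines, with arrays 0.00908 to 0.0108 above the Col-0 mean (limma adjusted p = 0.00144), while the shoot gene RCA and the root genes EXPA7 and AT4G26010 did not pass in any comparison. The part of LHCB4.2, or of any shift in tissue, in the UGT results was not tested.

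In the AtSPP knockdown lines 9 of the 46 UGT genes differed from Col-0. UGT78D1, UGT78D2, UGT71B1, UGT76E11, UGT72E2, UGT72B3, UGT74D1 and UGT73C1 were lower, and UGT85A4 was higher. The 9 genes are 19.6% of the UGT genes at a limma adjusted p under 0.05, beside 13.5% of all probe sets. The 8 lower genes are 17.4% of the members, beside 6.94% of all probe sets called lower, and the single higher gene is 2.17%, beside 6.56% called higher. Whether these shares differ from the rest of the array was not tested. The median difference over the 46 genes was 8.33e-10, beside -3.11e-07 over all probe sets, and 23 differences were positive and 23 negative.

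**Figure D1:**
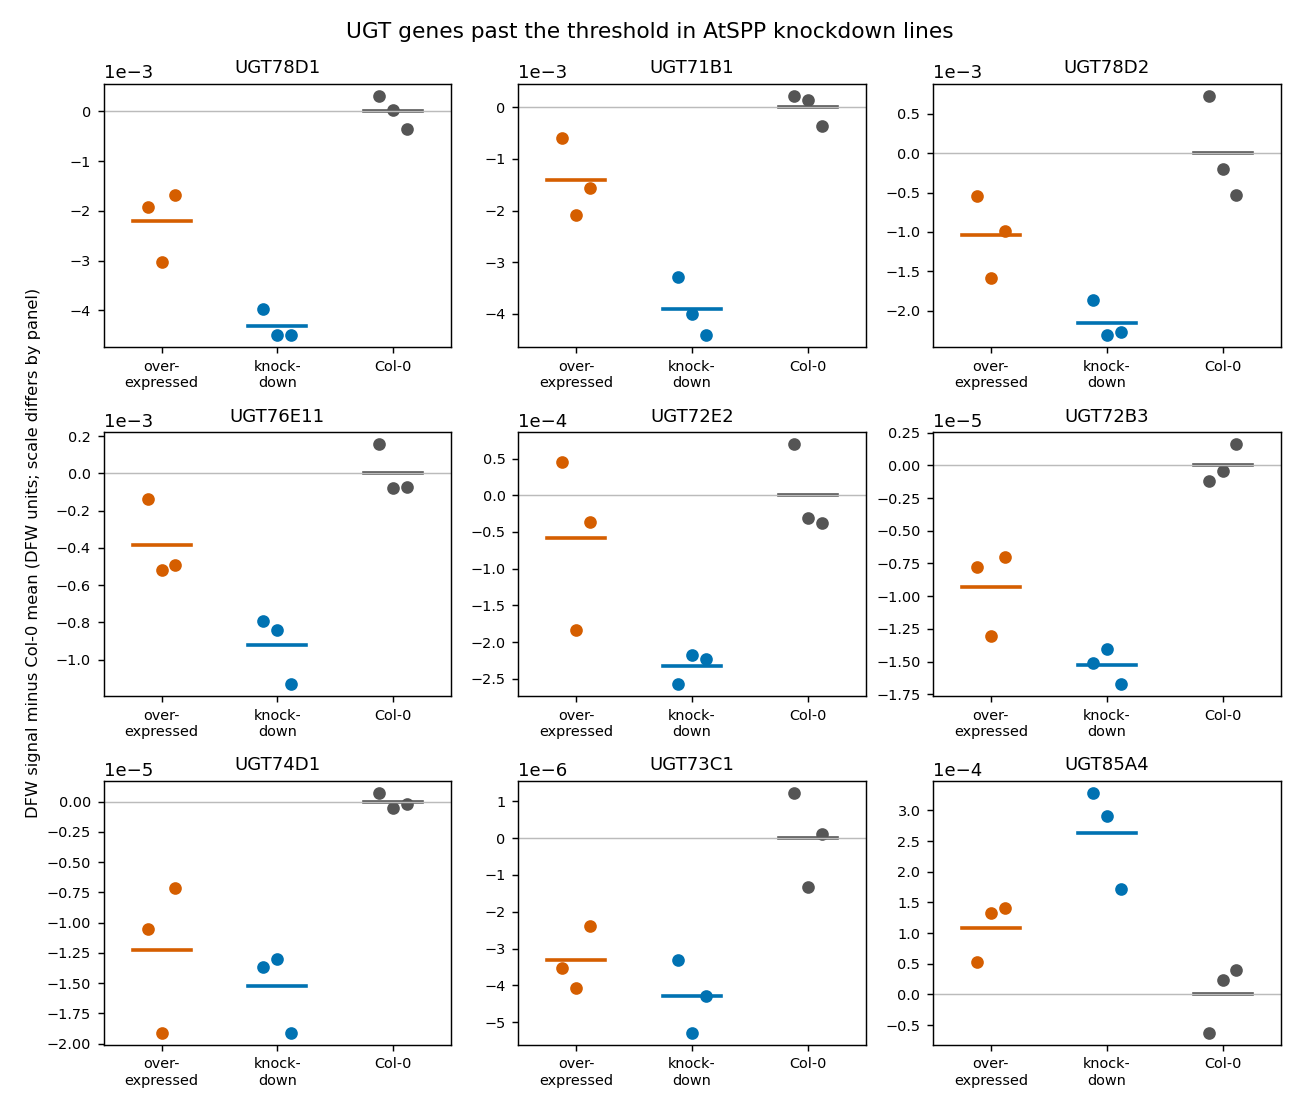
Signals of the 9 UGT genes that passed in the AtSPP knockdown lines. Each point is 1 array, each short line a group mean, and the vertical axis is the distance from the Col-0 mean in DFW units, with its own scale in each panel. In all 9 panels the 3 knockdown arrays lie apart from the 3 Col-0 arrays, and the mean of the AtSPP-overexpressed arrays lies between those of the other groups. The genes were picked for their knockdown difference, which favours both patterns.

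The lowest knockdown difference was that of a flavonoid UGT of family UGT78, UGT78D1 (AT1G30530), which transfers rhamnose to the 3-position of flavonols. Its arrays lay at -0.00193, -0.00303 and -0.00168 in the AtSPP-overexpressed lines, at -0.00397, -0.0045 and -0.00449 in the knockdown lines, and at 0.000317, 2.85e-05 and -0.000345 in Col-0. The 3 groups did not overlap, with the knockdown arrays lowest and the AtSPP-overexpressed arrays in the middle. The knockdown difference was -0.00432 (SE 0.000381, limma adjusted p = 0.0018).

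UGT78D2 (AT5G17050) adds glucose to the 3-position of flavonols and anthocyanidins. Its arrays lay at -0.000541, -0.00159 and -0.000984 in the AtSPP-overexpressed lines, at -0.00187, -0.00231 and -0.00227 in the knockdown lines, and at 0.000732, -0.000196 and -0.000536 in Col-0. Again no group overlapped another, but the highest AtSPP-overexpressed array and the lowest Col-0 array lay close together. The knockdown difference was -0.00215 (SE 0.000393, limma adjusted p = 0.0167). Without knockdown replicate 2 or 3 it no longer passed, with an adjusted p of up to 0.0629. The third gene of the family, UGT78D3, adds arabinose to flavonols. It differed by -3.42e-06 in the knockdown lines and did not pass (limma adjusted p = 0.257).

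The lowest knockdown difference after that of UGT78D1 was that of UGT71B1 (AT3G21750), and UGT76E11 (AT3G46670) came after UGT78D2. UGT71B1 arrays lay at -0.000587, -0.00208 and -0.00156 in the AtSPP-overexpressed lines, at -0.00329, -0.00401 and -0.00441 in the knockdown lines, and at 0.000226, 0.000144 and -0.00037 in Col-0. UGT76E11 arrays lay at -0.000138, -0.000518 and -0.000494 in the AtSPP-overexpressed lines, at -0.000794, -0.000841 and -0.00113 in the knockdown lines, and at 0.000155, -8e-05 and -7.45e-05 in Col-0. Both genes had 3 separate groups in the same order as UGT78D1. The knockdown difference was -0.0039 for UGT71B1 (SE 0.00045, limma adjusted p = 0.00377). For UGT76E11 it was -0.000923 (SE 0.00014, limma adjusted p = 0.00895).

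Among the UGTs of monolignols, the alcohols that build lignin, UGT72E2 (AT5G66690) was lower in the knockdown lines. Its arrays lay at 4.48e-05, -0.000183 and -3.63e-05 in the AtSPP-overexpressed lines, at -0.000257, -0.000217 and -0.000223 in the knockdown lines, and at 6.92e-05, -3.14e-05 and -3.78e-05 in Col-0. The knockdown arrays lay below all others. The AtSPP-overexpressed array at -0.000183 also lay below Col-0, while the other AtSPP-overexpressed arrays lay within the range of Col-0. The difference of -0.000232 (SE 5.94e-05) passed narrowly (limma adjusted p = 0.0488), and it no longer passed when any 1 of the knockdown or Col-0 arrays or AtSPP-overexpressed replicate 3 was left out, with an adjusted p of up to 0.137. It was also lost in a fit of probe sets with 1 gene (0.0564) and with robust eBayes (0.0503), while quantile normalization gave a larger difference of -0.00244 (0.000814). The other monolignol UGTs among the 46 did not pass: UGT72E1 differed by 3.99e-05 (limma adjusted p = 0.062) and UGT72E3 by -1.54e-05 (limma adjusted p = 0.258). UGT72E1 did pass with the dimmer probe sets left out (limma adjusted p = 0.0388), and UGT72E3 after quantile normalization (-4.8e-05, 0.0224). Both passed as lower after centring on array medians, as nearly all probe sets shifted. GT72B1, a monolignol UGT outside the 46, was lower in the knockdown lines and is given below. UGT84A1, UGT84A3 and UGT84A4, which make glucose esters of hydroxycinnamic acids, differed by -8.11e-05, -6.85e-05 and -2.1e-05 and did not pass.

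The remaining lower genes had far smaller differences in DFW units. Sizes in these units vary by orders of magnitude between probe sets, so they do not rank how far genes changed. Divided by its standard error, the knockdown difference of UGT72B3 was -8.61, beside -8.68 for UGT71B1. UGT72B3 (AT1G01420) arrays lay at -7.79e-06, -1.3e-05 and -7.01e-06 in the AtSPP-overexpressed lines, at -1.51e-05, -1.4e-05 and -1.67e-05 in the knockdown lines, and at -1.19e-06, -4.08e-07 and 1.59e-06 in Col-0. The groups did not overlap, and the difference of -1.53e-05 (SE 1.77e-06) had a limma adjusted p of 0.00383, but it was 0 after quantile normalization. UGT74D1 (AT2G31750), which glucosylates auxins, lay at -1.05e-05, -1.91e-05 and -7.1e-06 in the AtSPP-overexpressed lines, at -1.37e-05, -1.3e-05 and -1.91e-05 in the knockdown lines, and at 6.95e-07, -5.04e-07 and -1.91e-07 in Col-0. Here both transgenic groups lay below Col-0 and overlapped each other. The knockdown difference of -1.53e-05 (SE 3.21e-06) passed at a limma adjusted p of 0.0265, but not when any 1 of the knockdown or Col-0 arrays was left out, with an adjusted p of up to 0.0862. Quantile normalization gave -0.000323 (adjusted p = 0.0437).

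UGT73C1 (AT2G36750), an O-glucosyltransferase of cytokinins, had the smallest difference in DFW units among the genes that passed. Its arrays lay at -3.53e-06, -4.06e-06 and -2.38e-06 in the AtSPP-overexpressed lines, at -3.3e-06, -5.29e-06 and -4.3e-06 in the knockdown lines, and at 1.22e-06, -1.33e-06 and 1.11e-07 in Col-0. As for UGT74D1, the transgenic groups overlapped each other and lay below Col-0. The knockdown difference of -4.29e-06 (SE 9.49e-07) had a limma adjusted p of 0.0308. It did not pass without any single knockdown array, AtSPP-overexpressed replicate 1, or Col-0 replicate 1 or 3, with an adjusted p of up to 0.0947, or with the 6 arrays alone (0.0724), and it turned to 0.000147 after quantile normalization.

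UGT85A4 (AT1G78270) was the only UGT gene called higher in the knockdown lines. Its arrays lay at 5.33e-05, 0.000133 and 0.000141 in the AtSPP-overexpressed lines, at 0.000328, 0.000291 and 0.000172 in the knockdown lines, and at -6.26e-05, 2.34e-05 and 3.93e-05 in Col-0. The groups were again separate, with the knockdown arrays highest. The difference was 0.000264 (SE 4.91e-05, limma adjusted p = 0.018), and it turned to -0.000289 after each array was centred on its median. It did not pass without knockdown replicate 1 or 2 or Col-0 replicate 1, with an adjusted p of up to 0.0609, and after quantile normalization the difference was 0. In the same family UGT85A2 had a larger difference of 0.000419, with a wider spread (SE 0.000161), and did not pass (limma adjusted p = 0.153). UGT85A2 lay at 0.000227, -0.000213 and 0.000236 in the AtSPP-overexpressed lines, at 0.000685, 0.000369 and 0.000203 in the knockdown lines, and at 2.19e-05, 3.39e-05 and -5.58e-05 in Col-0, so that 1 AtSPP-overexpressed array lay below Col-0 and the other 2 above.

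By family, the genes that passed in the knockdown lines were 2 of 3 in UGT78, 2 of 4 in UGT72, 1 of 2 in UGT74, 1 of 5 in UGT85, 1 of 7 in UGT73, 1 of 8 in UGT76 and 1 of 9 in UGT71. Over all probe sets 13.5% passed. None of the 5 UGT84 genes passed, nor the single genes of UGT80, UGT87 and UGT88. The other 37 UGT genes had knockdown differences between -8.11e-05 for UGT84A1 and 0.000419 for UGT85A2. By role within the 46 genes, 2 of 9 hormone UGTs were lower, as were 1 of 6 UGTs of monolignols and hydroxycinnamic acids and 2 of 3 flavonoid UGTs. Of all probe sets 6.94% were called lower. None of 4 stress-induced UGTs passed, and UGT80B1, which glucosylates sterols, did not pass either (-2.45e-05, limma adjusted p = 0.43). The stress-induced UGT73B1 differed by 2.51e-05 (limma adjusted p = 0.218). The hormone UGTs that did not pass included UGT71B6 and UGT71C5, which act on abscisic acid, UGT74F1, which acts on salicylic acid, and UGT76C1 and UGT76C2, which act on cytokinins.

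**Figure D2:**
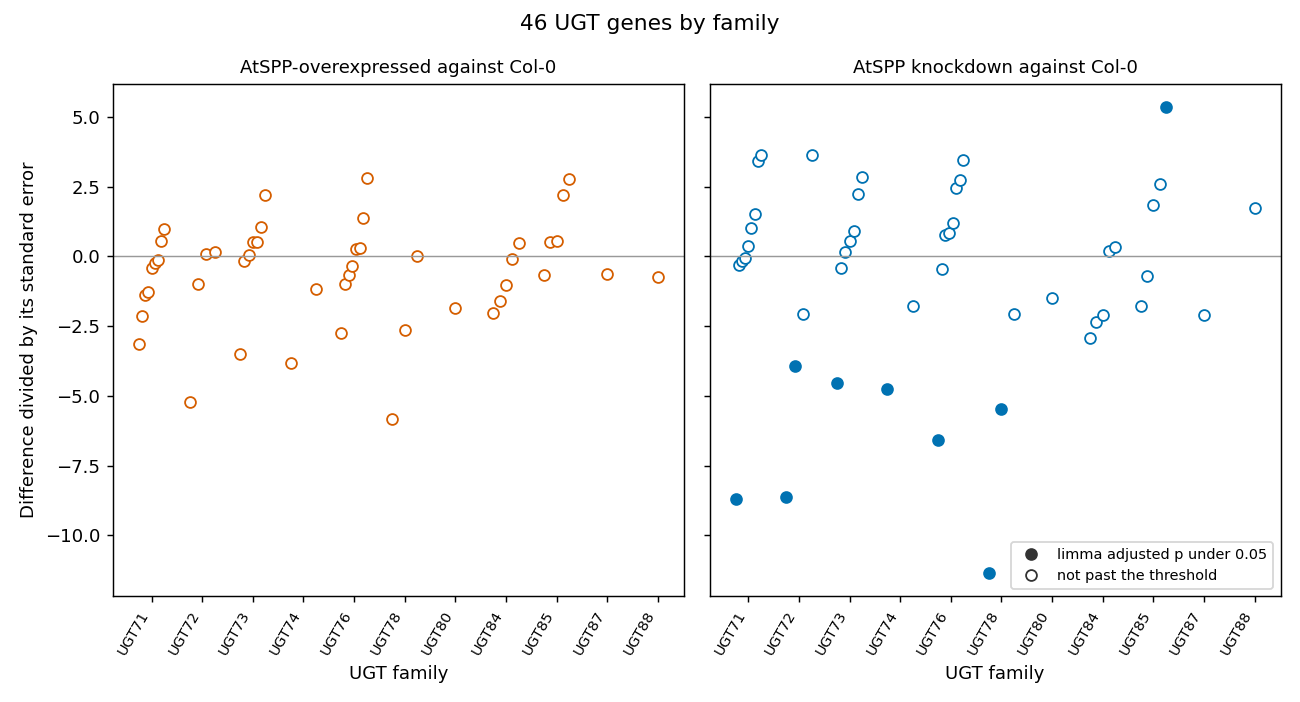
Difference from Col-0 divided by its standard error for the 46 UGT genes, by family, in the AtSPP-overexpressed lines (left panel) and the AtSPP knockdown lines (right panel). Filled points passed at a limma adjusted p under 0.05: none on the left and 9 on the right, of which UGT85A4 is the one above 0.

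A looser measure, arrays that do not overlap, gave another picture of direction. In the knockdown lines 12 UGT genes had all 3 arrays above Col-0 and 12 had all 3 below, 26.1% of the members each way. Over all probe sets these shares were 14.9% above and 18.5% below. The 12 above included UGT71C2, UGT71C5, UGT72E1, UGT76B1 and UGT88A1 beside UGT85A4, and the 12 below were the 8 lower genes with UGT72E3, UGT84A1, UGT84A3 and UGT85A7. The study's methods describe rank products for the AtSPP-overexpressed lines against Col-0. Run here on the knockdown lines, rank products called 4 UGT genes (8.7%, beside 4.7% of all probe sets), all lower: UGT78D1, UGT71B1, UGT78D2 and UGT76E11. These had the 4 lowest differences among the members, and rank products sort by size.

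In the AtSPP-overexpressed lines 0 of the 46 UGT genes passed at a limma adjusted p under 0.05, as 0.545% of all probe sets did. At an unadjusted p under 0.05, 9 UGT genes (19.6%) stood beside 12.8% of all probe sets. Rank products called UGT78D1, UGT71B1, UGT78D2 and UGT76E11 lower, 8.7% of the members beside 2.82% of all probe sets. Against Col-0, AtSPP-overexpressed lines differed by -0.00221 for UGT78D1 (SE 0.000381, limma adjusted p = 0.0722), -0.00141 for UGT71B1 (SE 0.00045, limma adjusted p = 0.259), -0.00104 for UGT78D2 (SE 0.000393, limma adjusted p = 0.341) and -0.000383 for UGT76E11 (SE 0.00014, limma adjusted p = 0.319). UGT78D1 did pass in limma after quantile normalization, after centring on array medians and when the dimmer probe sets were left out.

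Of the UGT genes, 8 had all 3 AtSPP-overexpressed arrays below all 3 Col-0 arrays, 17.4% beside 7.28% of all probe sets. They were UGT71B6 and 7 of the 8 genes called lower in the knockdown lines, all but UGT72E2. Another 4 UGT genes lay above Col-0 without overlap, 8.7% beside 9.71% of all probe sets: UGT73B1, UGT76C2, UGT85A4 and UGT85A5. The highest differences were 0.000109 for UGT85A4 (limma adjusted p = 0.436), 8.33e-05 for UGT85A2 (limma adjusted p = 0.921) and 5.26e-05 for UGT85A5 (limma adjusted p = 0.311). UGT76C2, an N-glucosyltransferase of cytokinins, differed by 2.09e-05 (limma adjusted p = 0.308).

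The comparisons with Col-0 share the 3 Col-0 arrays, so that a likeness between them is partly built in. All 9 UGT genes that passed in the knockdown lines had their AtSPP-overexpressed mean between the knockdown and Col-0 means, as had 27 of the 46 UGT genes and 46.7% of all probe sets. The 9 genes were picked for their knockdown difference, which favours this order, while the share of 46.7% covers probe sets that were not picked. The difference from Col-0 was larger in the knockdown lines for 36 of the 46 UGT genes and for 64.5% of all probe sets.

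The transgenic groups were also compared directly. Here 2 UGT genes passed (4.35%, beside 4.33% of all probe sets), both with the higher signal in AtSPP-overexpressed lines (2.26% of all probe sets). UGT71B1 differed by 0.0025 (SE 0.00045, limma adjusted p = 0.0345) and UGT78D1 by 0.0021 (SE 0.000381, limma adjusted p = 0.0352). Neither passed when these 6 arrays were fitted alone, or when any 1 array other than AtSPP-overexpressed replicate 2 was left out (adjusted p up to 0.111 for UGT71B1 and 0.118 for UGT78D1). LHCB4.2 was lower in the AtSPP-overexpressed than in the knockdown lines as well (-0.0115, limma adjusted p = 0.00214), and its part was not tested. UGT78D2 differed by 0.00111 (limma adjusted p = 0.187), and UGT85A2, UGT85A4 and UGT72E1 had the lowest differences, at -0.000336, -0.000154 and -3.9e-05, none of which passed. Without overlap, 8 UGT genes were higher in the AtSPP-overexpressed lines (17.4%, beside 15.1% of all probe sets) and 7 were lower (15.2%, beside 10.3%).

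Many UGT genes are neighbours on the chromosomes. Of the 46, 31 fell into 13 groups, with consecutive members at most 5 positions apart in the RefSeq gene order. Neighbours of a gene that passed did not pass in any of the 4 groups that held one. On chromosome 3 UGT76E11, which was lower in the knockdown lines, lies 1 gene away from UGT76E12. The knockdown arrays of UGT76E12 lay at 3.81e-05, 3.46e-05 and 9.13e-06 and its Col-0 arrays at 3.99e-06, -4.17e-06 and 1.79e-07, above Col-0 without overlap (difference 2.73e-05, limma adjusted p = 0.0713, and 0.0135 without knockdown replicate 3). On chromosome 5 UGT78D2 and UGT78D3 lie 1 gene apart, and on chromosome 2 UGT73C1 lies next to UGT73C2, whose knockdown difference was -3.24e-07 (limma adjusted p = 0.867). UGT71B1 shares its group on chromosome 3 with UGT71B6 and UGT71B8, which differed by 3.1e-06 and -8.87e-08 (limma adjusted p = 0.616 and 0.946). The group of 4 on chromosome 1, UGT85A7, UGT85A2, UGT85A5 and UGT85A3, had differences of both signs and no gene that passed.

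**Figure D3:**
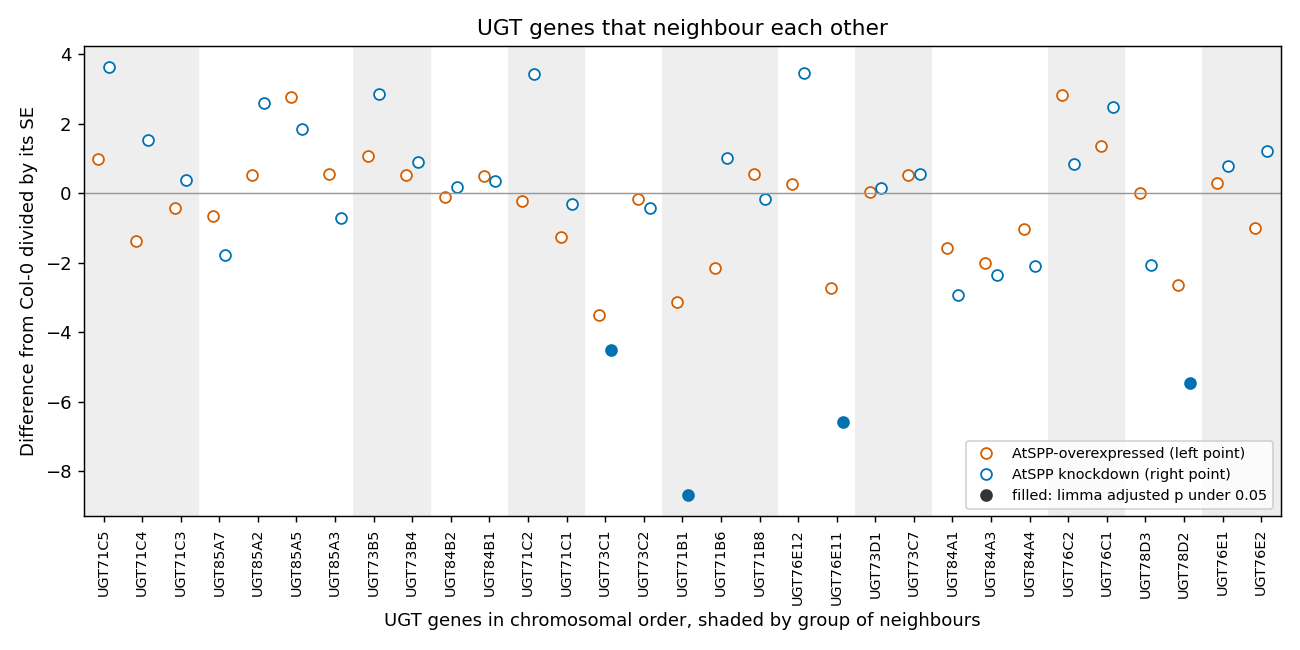
Difference from Col-0 divided by its standard error for the 31 UGT genes that have a UGT neighbour, in chromosomal order and shaded by group, with the AtSPP-overexpressed lines to the left and the AtSPP knockdown lines to the right of each position. The filled points of UGT73C1, UGT71B1, UGT76E11 and UGT78D2 stand apart from their open neighbours.

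Of 5 UGT genes that the annotation lists under other symbols, and that are outside the 46, 3 were lower in the knockdown lines. Over all probe sets 6.94% were called lower there. GT72B1 (UGT72B1), which glucosylates monolignols and chlorinated xenobiotics, differed by -0.000634 (SE 0.000105, limma adjusted p = 0.0121, and 0.0503 without knockdown replicate 3), and by -0.00147 after quantile normalization. UF3GT (UGT79B1), which adds xylose to anthocyanins, differed by -0.000296 (SE 4.35e-05, limma adjusted p = 0.0081). IAGLU (UGT75D1), an auxin glucosyltransferase, differed by -0.000163 (SE 2.59e-05, limma adjusted p = 0.0106). After quantile normalization UF3GT and IAGLU differed by -0.000155 and -0.00047 in the knockdown lines and no longer passed (adjusted p = 0.249 and 0.0763). UF3GT was also 0.000255 higher in the AtSPP-overexpressed than in the knockdown lines (limma adjusted p = 0.0288). This call was lost when 1 array was left out (adjusted p up to 0.0986), unless that was AtSPP-overexpressed replicate 2 or Col-0 replicate 1, and it was lost with the 6 arrays alone (0.0881) and after quantile normalization (0.175). AT5G54010 (UGT79B6) and SGT (UGT80A2) did not pass in any comparison.

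Enzymes that work with UGTs were measured only in part. Of 7 flavonoid enzymes DFR alone, which makes the precursors of anthocyanidins, had a probe set of its own. Its knockdown difference was -0.000894 (SE 0.00022, limma adjusted p = 0.0432) and did not pass when any 1 array other than Col-0 replicate 2 was left out (adjusted p up to 0.124), or with the 6 arrays alone (0.108). Of 5 measured beta-glucosidases 1 was higher, BGLU45, which acts on monolignol glucosides (2.12e-05, limma adjusted p = 0.0145, and 0.0502 without knockdown replicate 1), with 0.000152 after quantile normalization. USP, which makes UDP-sugars and was the only one of 16 such genes measured, did not pass, and none of 8 phenylpropanoid enzymes had a probe set of its own. Of the other detoxification families, 1 of 14 glutathione S-transferase genes was lower in the knockdown lines, GSTU20 (-0.000418, limma adjusted p = 0.00824, and 0.0817 after quantile normalization), and of 22 cytochrome P450 genes 1 was higher and 1 lower. Of all probe sets 6.56% were called higher and 6.94% lower in the knockdown lines. Whether UGT genes passed more often than the glutathione S-transferase and cytochrome P450 families was not tested.

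The calls in the knockdown lines depended on single arrays to different degrees. UGT78D1, UGT71B1 and UGT76E11 passed with any 1 of the 9 arrays left out, with adjusted p-values of at most 0.0109, 0.0187 and 0.0313, as did UGT72B3 (at most 0.02). The count over the 46 genes lay between 4 without knockdown replicate 2 and 10 without AtSPP-overexpressed replicate 2. It was 5 without knockdown replicate 1. Of all probe sets, 8.53%, 12.7% and 8.82% passed in these fits, in the same order, so the share over the array moved as well.

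**Figure D4:**
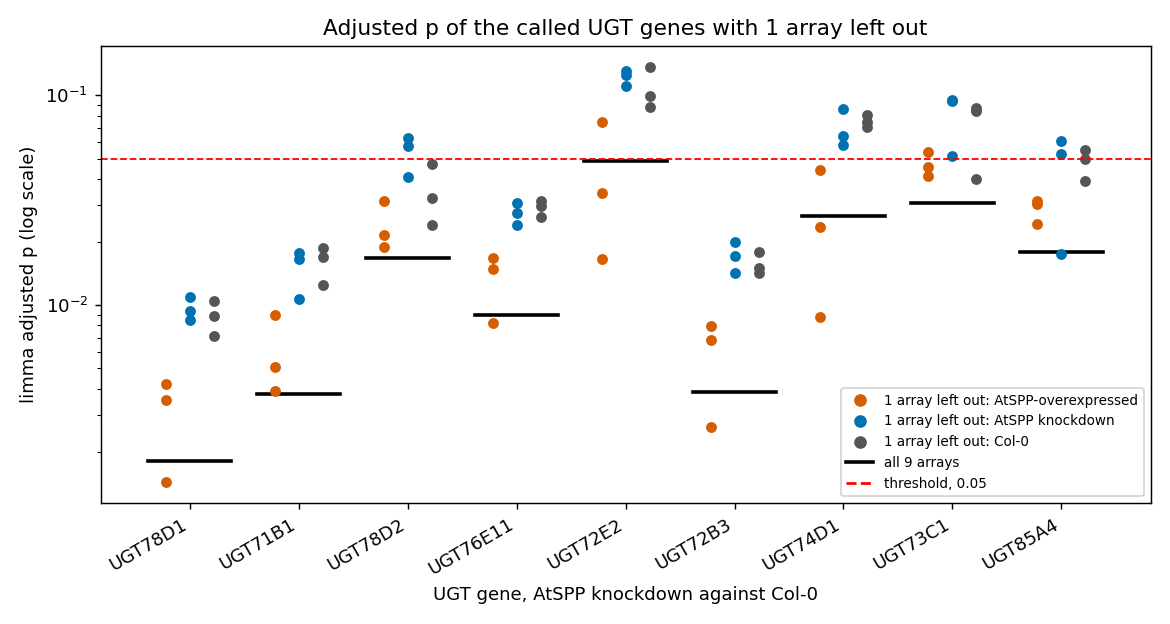
Limma adjusted p, on a log axis, of the 9 UGT genes that passed in the AtSPP knockdown lines against Col-0. Each point leaves out 1 of the 9 arrays, coloured by its group, the black line uses all 9, and the dashed line is the threshold of 0.05. All points of UGT78D1, UGT71B1, UGT76E11 and UGT72B3 lie below the dashed line, while points of the other 5 genes lie on both sides.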

How the data were processed

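RNA of whole seedlings was measured on 9 Affymetrix ATH1 arrays, 1 per sample. The authors made the deposited values, on a log scale taken here as log2, by DFW normalization in R. The logarithm's base, the software version and the background correction were not given in the sources used here. Nothing was rescaled before testing. Probe sets were named through the platform annotation, and the RefSeq table of TAIR10.1 served for symbols and gene order alone. After 64 control probe sets were left out, 22746 went into limma (version 3.58.1, R 4.3.3), in a single fit of all 9 arrays without covariates (6 residual degrees of freedom). The p-values are two-sided and Benjamini-Hochberg adjusted over all probe sets, with a threshold of 0.05. Rank products used 100 permutations within arrays. Both were also run on simulated arrays with known differences, and the outcome is not given here. A further simulation of rank products used a common spread. In these data the SD over the 9 arrays ran from 2.02e-08 to 0.37 between probe sets. Groups were taken from the sample labels. The number of arrays limits the precision.

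Named genes were, in each comparison, the UGT genes past the threshold, the 3 highest and 3 lowest differences, and the brightest measured gene of each role list, with AtSPP, the tissue markers and the partner genes past the threshold (DFR, BGLU45, GSTU20). In addition UGT76E12, UGT78D3, UGT72E3, UGT76C2, the UGT84A genes, the other tandem neighbours, the genes listed by name alone for arrays that do not overlap or for their role, and the UGT genes under other symbols were named after their values were seen. The members and lists were chosen with earlier results of these data known. The alternatives were quantile normalization, 2 ways of centring, a filter on dim probe sets, a replicate block, array weights, robust eBayes, an intensity trend, a fit of 6 arrays, a fit of probe sets with 1 gene, the mean of a gene's probe sets, RefSeq symbols, rank products and each array left out in turn. The replicate numbers were not used to pair the samples in the main fit. Over 9 pairs of arrays with the same number the correlation of their deviations from the group means ran between -0.138 and 0.208, with 2 pairs over 0.1. Over 18 pairs with other numbers it ran between -0.222 and 0.214. Deviations within a group of 3 arrays depend on each other, so these correlations cannot exclude a shared batch.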

Additional observations from a re-analysis of the deposited data

Results flagged for a closer look

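In limma, 2 UGT genes passed in the direct test between the transgenic groups, 4.35% beside 4.33% of all probe sets. UGT71B1 was 0.0025 DFW units higher in AtSPP-overexpressed than in knockdown seedlings, and UGT78D1 was 0.0021 higher. All 3 AtSPP-overexpressed arrays lay above all 3 knockdown arrays for both genes, as for 15.1% of all probe sets. Both calls were lost when any 1 array other than AtSPP-overexpressed replicate 2 was left out (adjusted p up to 0.111 for UGT71B1 and 0.118 for UGT78D1) and with the 6 arrays of the comparison alone (0.0992 and 0.0959).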

How the results depend on the processing

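With 3 arrays a group, each value rests on few samples, and without scanner intensities nothing here tells how far a probe set stood above background. The gap between array medians (6.3029 on the knockdown arrays, 6.3023 on the Col-0 arrays) is wider than the knockdown difference of all UGT genes but UGT78D1, UGT71B1, UGT78D2 and UGT76E11, so that centring on array medians shifted nearly all probe sets one way. It gave 1 UGT gene for overexpression (beside 1.56% of all probe sets), 45 in the knockdown lines (98.4%) and 45 between the transgenic groups (97.4%). The main fit gave 0, 9 and 2. Quantile normalization gave 3 of the 46 in the AtSPP-overexpressed lines (beside 11.5% of all probe sets) and 4 between the transgenic groups (beside 10.5%). It gave 13 in the knockdown lines (beside 30.4%), 6 of them among the 9. With the dimmer probe sets left out, where 22 UGT genes were tested, 1 passed in the AtSPP-overexpressed lines (beside 2% of all probe sets). In the knockdown lines 10 passed (beside 27.3%), and 2 between the transgenic groups (beside 11.5%). Rank products called 4 in each comparison with Col-0, beside 2.82% of all probe sets for overexpression and 4.7% for the knockdown. With the 6 arrays alone, 0 passed between the transgenic groups, beside 1.88% of all probe sets. With 1 array left out, the counts were 0 throughout for overexpression, beside 0.022% to 0.224% of all probe sets. They ran between 4 and 10 for the knockdown, beside 6.77% to 12.8%. Between the transgenic groups they ran between 0 and 4, beside 1.51% to 4.06%. With a replicate block 0 passed for overexpression (beside 0.00879% of all probe sets), 6 for the knockdown (10.3%) and 1 between the transgenic groups (2.59%). The knockdown calls lost with the block were UGT72E2 (limma adjusted p = 0.0733), UGT74D1 (0.0703) and UGT85A4 (0.055). The block also ended the calls of AtSPP in the AtSPP-overexpressed lines (0.0568), of DFR (0.08), and of UGT78D1 (0.0647) and UF3GT (0.0574) between the transgenic groups. The cause of the changes other than under centring was not tested.

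Directions turned under the following settings. In the AtSPP-overexpressed lines, centring on array medians gave -4.95e-05 for UGT85A4, -7.54e-05 for UGT85A2, -0.000106 for UGT85A5, -0.000134 for UGT73B1 and -0.000138 for UGT76C2. Quantile normalization gave -0.000386 for UGT85A2 and -3.25e-05 for UGT76C2 there, and UGT72E2 ran between -0.00011 and 4.25e-06 with 1 array left out, the highest without AtSPP-overexpressed replicate 2. In the knockdown lines, centring gave -0.000289 for UGT85A4, -0.000133 for UGT85A2, -0.000512 for UGT72E1, -0.000527 for UGT73B1, -0.000525 for UGT76E12 and -0.000531 for BGLU45. Quantile normalization gave 0.000147 for UGT73C1, -0.000196 for UGT85A2, -9.91e-05 for UGT72E1 and -5.59e-05 for UGT73B1 there, and 0 for UGT72B3 and UGT85A4, which then did not pass. Between the transgenic groups, centring gave 5.77e-05 for UGT85A2, 0.000239 for UGT85A4 and 0.000354 for UGT72E1, and quantile normalization gave 0.000147 for UGT85A4 and 7.36e-05 for UGT72E1.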
